A study of Drosophila melanogaster with 3 samples.

Results

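Proteasome subunit genes encode the parts of the 26S proteasome, the protease that degrades proteins marked with ubiquitin, and were examined here for promoter peaks of the CG13296 protein. Members were the protein-coding genes whose symbol in the Ensembl annotation begins with Rpn, with Rpt and a digit, with Prosalpha or with Prosbeta, which gave 48 of 13945 protein-coding genes on the main chromosome arms. The rule used symbols and no peak value, but it was chosen with earlier results of these data known. By the role of their product, 32 were primary genes, 14 of the core particle, 10 of the base and 8 of the lid. The other 16 were duplicate copies, whose symbols carry a T or an R after the subunit number (11 core particle, 4 base and 1 lid).

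The study mapped the CG13296 protein, named Prdm13 in the annotation, by chromatin immunoprecipitation sequencing (ChIP-seq) in Drosophila melanogaster, in 3 biological replicates of 1 group. The strain was CG13296-GFP, a transgenic line in which CG13296 carries green fluorescent protein at its C terminus, and the material was whole embryos, male and female pooled, at 6 to 18 hours of age, with no treatment in the labels. No second genotype, time or treatment was analysed here, and the replicates are separate biosamples of the same line. The sources used here do not state the promoter that drives the transgene or the read depth, and the precision of single peaks is therefore unknown. The submitters' sample descriptions call the libraries input control, against the assay title and the antibody label, and an age tag of the labels holds an impossible number of hours. Whole embryos pool many cell types, so a weak peak in many cells and a strong peak in few cells cannot be told apart.

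The core particle is a barrel of stacked rings, with alpha subunits in the outer rings that gate the entrance and beta subunits in the inner rings that hold the proteolytic sites. The regulatory particle caps it: its base holds the Rpt ATPases that unfold and feed in substrates, and its lid holds the Rpn11 deubiquitinase among scaffold subunits. In Drosophila several subunits have a duplicate copy, and a number of these copies are known for expression in the male germline. Proteasome genes are needed in nearly every cell, and in flies their transcription after proteasome inhibition is known to depend on Cnc.

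The sequences around the peaks that the results turn on come first. A summit is the position of highest enrichment in a peak, and a gene was called bound when a summit of the set that passed the authors' irreproducible discovery rate (IDR) threshold lay within 500 bp of one of its transcription start sites (TSSs). Shown for 4 of the 9 bound members is the sequence outside annotated exons within 130 bp of the summit, read on the strand of the gene from the RefSeq release 6 genome (build dm6). Rpn11 (chr2L:5059833-5060093, minus strand) and Rpn12 (chr3L:16582780-16583027, plus strand) are the bound members with no neighbouring promoter. Rpn2 (chr3R:29153267-29153505, plus strand) and Rpn5 (chr3R:5789151-5789328, plus strand) lie beside a divergent gene. Capitals mark the TATA box letters TATAAA, the DNA replication element TATCGATA and its shorter core ATCGAT, on either strand, so TTTATA is TATAAA read on the other strand.
Rpn11: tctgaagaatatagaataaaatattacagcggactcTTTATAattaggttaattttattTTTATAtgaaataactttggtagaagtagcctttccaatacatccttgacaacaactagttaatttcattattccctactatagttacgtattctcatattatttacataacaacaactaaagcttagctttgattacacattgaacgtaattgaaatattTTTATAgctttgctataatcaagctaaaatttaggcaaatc
Rpn12: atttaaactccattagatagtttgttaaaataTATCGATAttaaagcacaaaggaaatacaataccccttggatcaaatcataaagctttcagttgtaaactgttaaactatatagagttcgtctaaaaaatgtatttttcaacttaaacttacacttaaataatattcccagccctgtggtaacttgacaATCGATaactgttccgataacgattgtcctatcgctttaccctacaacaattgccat
Rpn2: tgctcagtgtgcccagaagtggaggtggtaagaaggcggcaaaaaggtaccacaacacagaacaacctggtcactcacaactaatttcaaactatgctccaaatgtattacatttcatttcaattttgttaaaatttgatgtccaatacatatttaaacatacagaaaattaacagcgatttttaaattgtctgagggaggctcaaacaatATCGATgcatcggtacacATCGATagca
Rpn5: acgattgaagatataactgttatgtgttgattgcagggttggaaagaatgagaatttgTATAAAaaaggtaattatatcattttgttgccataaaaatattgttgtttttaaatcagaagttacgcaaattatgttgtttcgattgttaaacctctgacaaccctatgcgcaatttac

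For contrast, the 200 bases before the TSS of Rpn12R (chr3L:15042571-15042770, minus strand), the duplicate of Rpn12, hold no match to the motifs marked above, and this gene had no summit within 500 bp in any list.
Rpn12R: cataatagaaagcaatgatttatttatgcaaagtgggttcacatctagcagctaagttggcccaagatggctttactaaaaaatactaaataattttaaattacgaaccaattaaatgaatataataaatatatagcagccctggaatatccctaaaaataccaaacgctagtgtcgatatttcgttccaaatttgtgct

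The next set shows the element that recurred in the promoters of primary members, TATCGATA in capitals, with 10 bases on each side, on the strand of the gene. It is known as the DNA replication element (DRE) and is the site of the factor DREF. The coordinates are those of the 8 capitals and the distance is from the TSS to the first of them. Bound genes are Rpn12 (chr3L:16582812-16582819, plus strand, -216 bp), Rpn3 (chr2L:19051866-19051873, plus strand, +76 bp) and Rpt5 (chr3R:23752830-23752837, plus strand, -46 bp). Unbound genes are Prosalpha6 (chr2L:10221335-10221342, plus strand, -16 bp), Prosbeta2 (chr3L:14999941-14999948, plus strand, -10 bp), Prosbeta6 (chr3L:16610455-16610462, minus strand, -44 bp) and Rpn7 (chr3R:22462044-22462051, minus strand, +3 bp).
Rpn12: tgttaaaataTATCGATAttaaagcaca
Rpn3: ccgtaaaacgTATCGATAaattgaaacg
Rpt5: tcgctgtcacTATCGATAagcgccggcg
Prosalpha6: ccgaatccctTATCGATAcccgatacac
Prosbeta2: catgaatataTATCGATAcaatatcgat
Prosbeta6: tatgtataccTATCGATAacgtttaagc
Rpn7: cggtataattTATCGATAattttggggt

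Of the 48 proteasome subunit genes, 9 were bound in the IDR set (18.8%), against 23.3% of all protein-coding genes. All 9 were primary genes, which made 28.1% of 32, and none of the 16 duplicates was bound. The 9 were 5 of 8 lid genes, 3 of 10 base genes and 1 of 14 core particle genes. The list as a whole was therefore near the background, and its subcomplexes lay on both sides of it. These are counts of a small list, and no test between subcomplexes was made. In the 5724 peaks of highest signal of each replicate, called its top list, 8.33 ± 1.53 (SD, n = 3) members had a summit within 500 bp. They were 10, 8 and 7 in replicates 1, 2 and 3, where the same call took 23.1%, 23.1% and 23.7% of all protein-coding genes. By subcomplex the top lists held 4.67 ± 1.15 lid genes, 2 ± 0 base genes and 1.67 ± 0.577 core particle genes (SD, n = 3), and no duplicate copy. The base genes were not the same ones throughout: Rpt5 stood with Rpn2 in replicate 1 and with Rpn13 in replicates 2 and 3. When only peaks supported in the top lists of the remaining replicates were kept, the base count was 1 without replicate 2 or without replicate 3, and the lid count was 3 without replicate 1. Under the same filter the share of all protein-coding genes was 17.6%, 18.2% and 17.6% without replicates 1, 2 and 3.

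**Figure D1:**
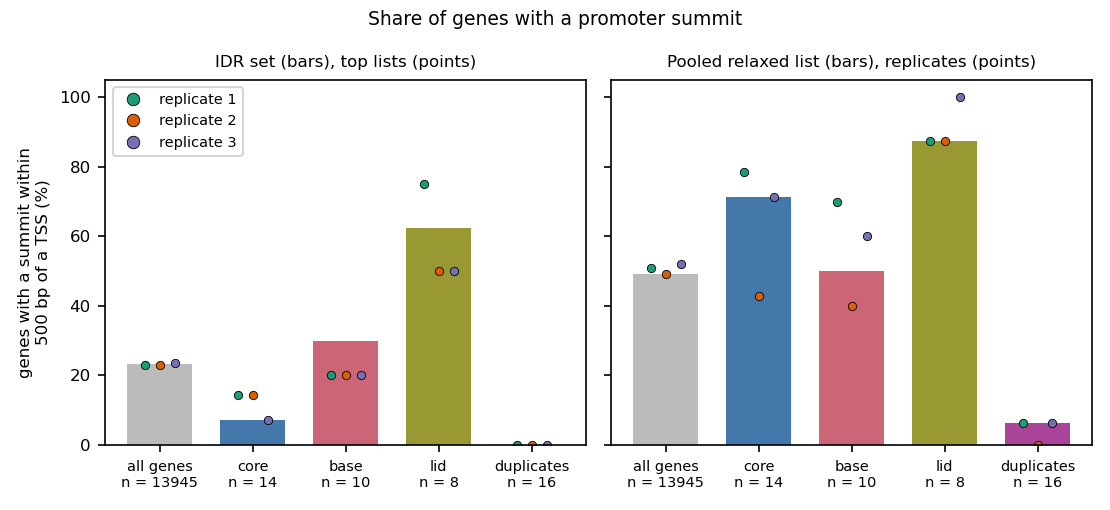
Share of genes with a summit within 500 bp of a TSS (y axis, percent) for each proteasome group and all protein-coding genes, with bars for the IDR set and the pooled relaxed list and points for the replicates' own lists. In the IDR set the lid stands at 62.5%, the base at 30.0%, the core particle at 7.14% and the duplicates at 0, beside 23.3% of all genes.

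Lid genes held the peaks of highest rank. Rpn11 encodes the zinc metalloprotease that removes ubiquitin chains from substrates, and its summit (chr2L:5059743-5060182) lay at -173 bp from the TSS, where negative values are upstream, at rank 1825 of the 5724 IDR peaks, with rank 1 the highest signal. The peak ranked 2167, 2220 and 1550 in replicates 1, 2 and 3, with summits at -171, -211 and -180 bp from the TSS. It stood in every top list, with ranks close to each other. Rpn12, a scaffold subunit of the lid, had its summit (chr3L:16582690-16583129) at -118 bp and rank 2262. Its replicate ranks were 3401, 2043 and 2451, and the summit fell on the same base, -118, in all 3 replicates. Neither gene had another TSS within 500 bp of its summit.

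The other bound lid genes shared their summit with a neighbour. Rpn3, also a scaffold subunit, had a summit (chr2L:19051581-19052020) 11 bp downstream of its TSS, in its own UTR, at rank 2712 and at ranks 3108, 4219 and 2311 in the replicates. It lay at -189 bp from the TSS of l(2)37Bb, so the TSS of Rpn3 was the nearer one. Rpn5 had a summit (chr3R:5789061-5789500) at -212 bp and rank 2747, with replicate ranks of 3873, 6032 and 1890, of which that of replicate 2 fell outside the top list. This summit lay in an intron of Hat1, a histone acetyltransferase gene on the opposite strand, 103 bp downstream of the nearest Hat1 TSS. Rpn9 had a summit at +157 bp, in its UTR, with rank 4724 and replicate ranks of 4699, 3438 and 6166. In short, 3 of the 5 bound lid genes, Rpn11, Rpn12 and Rpn3, stood in the top list of every replicate and had the nearest TSS.

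In the base, 1 of 6 ATPase genes and 2 of 4 non-ATPase genes were bound. Rpt5, an ATPase gene, had a summit (chr3R:23752634-23753073) at -22 bp and rank 2910, with replicate ranks of 2482, 5187 and 3117, all in the top lists. The summit lay between the start sites of Rpt5 and RanBP3, at -20 bp from the latter. Rpn2, whose product is a large scaffold that carries Rpn13, had a summit (chr3R:29153155-29153594) at -149 bp and rank 4877. Its replicate ranks were 3382, 5859 and 6446, so only replicate 1 held it in the top list, and Slbp, the gene of the histone mRNA stem-loop binding protein, was nearer at -109 bp. Rpn13, a ubiquitin receptor, had a summit (chr2R:13960535-13960974) at -351 bp and rank 5558. This was the weakest of the 9, with replicate ranks of 13363, 2443 and 5448, and it lay in a UTR of CtsL1, the cathepsin L gene, 80 bp downstream of that TSS.

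In the core particle 1 of 7 alpha genes and 0 of 7 beta genes were bound. Prosalpha4 had a summit (chrX:16275702-16276141) at -348 bp and rank 3872, with replicate ranks of 3930, 3824 and 4405, in every top list. This summit lay at -5 bp from a TSS of kat80, the gene of the regulatory subunit of the microtubule-severing enzyme katanin, and inside an intron of a longer kat80 transcript. The proteolytic subunit genes Prosbeta1, Prosbeta2 and Prosbeta5 were thus among the unbound. Prosalpha3 was in the top lists of replicate 1 (rank 3554) and replicate 2 (rank 3544), but ranked 11333 in replicate 3 and 18160 in the pooled list, with summits at -43, -75, +106 and +106 bp. Its replicates disagreed, and no IDR peak lay within 500 bp of it.

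**Figure D2:**
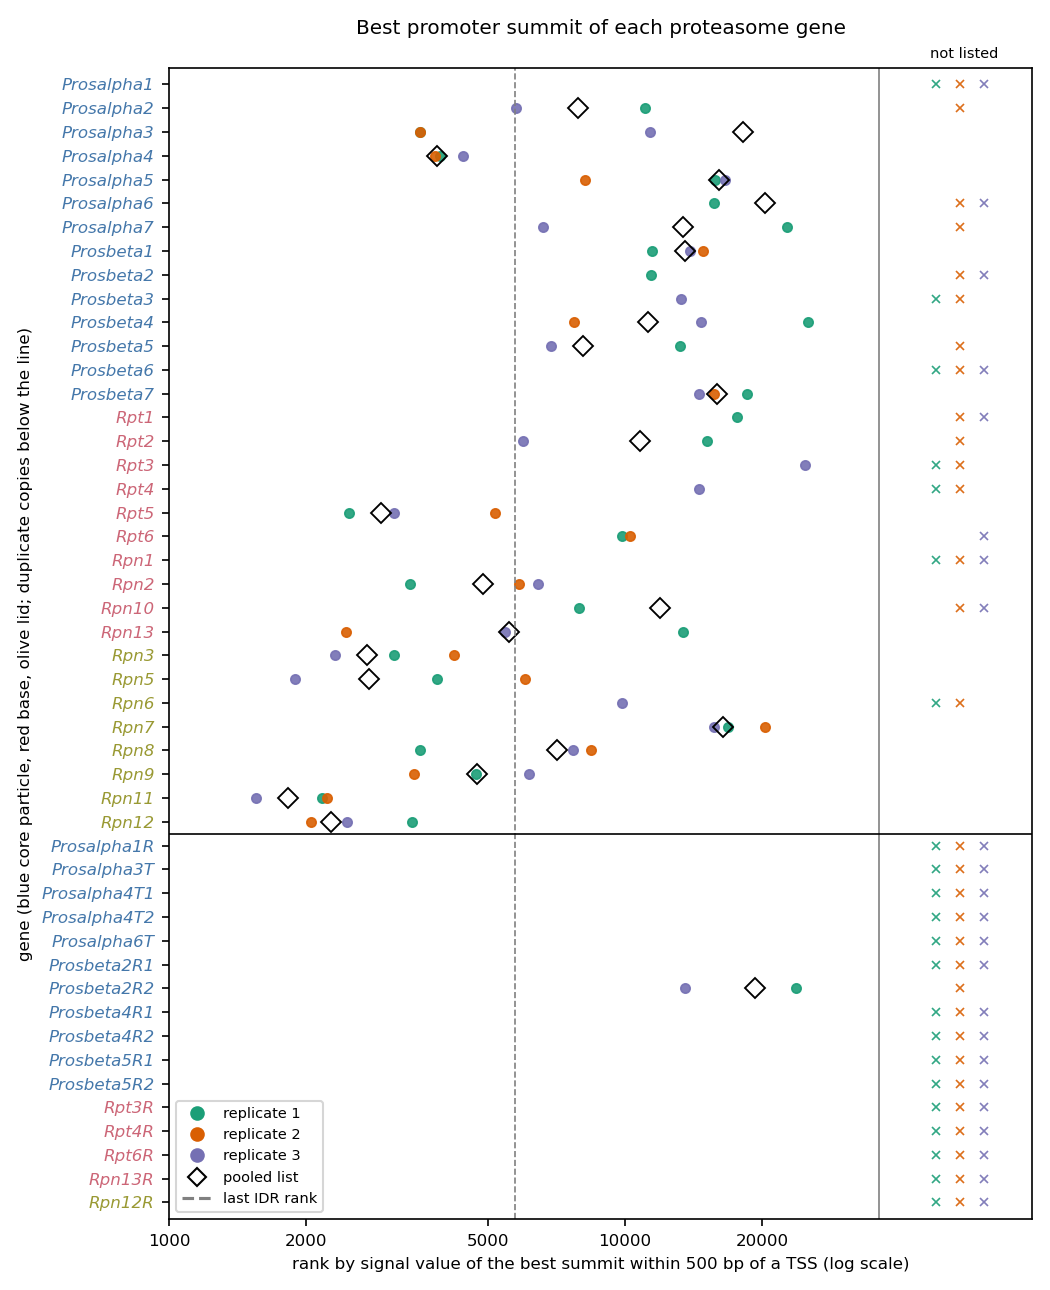
Rank by signal value of the highest summit within 500 bp of a TSS (logarithmic axis, rank 1 highest) in the pooled list and in each replicate, for the 32 primary members and the 16 duplicates, with filled points for replicates, open diamonds for the pooled list and crosses for replicates in which the member was not listed. Lid genes hold the ranks 1825 and 2262, whereas all unbound core particle genes have pooled ranks of 7871 or beyond, or none, and at Prosalpha3 the points of replicates 1 and 2 nearly coincide.

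Within the limit of 500 bp, the bound members farthest from a TSS were Rpn13 at -351 bp and Prosalpha4 at -348 bp. Just outside was Rpn8, the inactive partner of Rpn11 in the lid, with an IDR summit at -511 bp (rank 5169) and a further pooled summit at -293 bp (rank 7100) that was not in the IDR set. With a limit of 1000 bp 10 members were bound, against 27.1% of all protein-coding genes, and with 200 bp 6 were, against 16.97%.

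Beyond the IDR set, primary members were often listed at lower rank. The pooled relaxed list of 30000 peaks had a summit within 500 bp of 22 of 32 primary genes (68.8%) and of 1 of 16 duplicates, together 23 members, against 49.3% of all protein-coding genes. By subcomplex these were 7 of 8 lid, 10 of 14 core particle and 5 of 10 base genes. The relaxed lists of replicates 1, 2 and 3 held 25, 17 and 24 primary genes, where 50.8%, 49.1% and 52.1% of all protein-coding genes were listed. Replicate 2 listed fewer of them than the other replicates did, and among core particle genes it listed 6 against 11 and 10. In all 3 relaxed lists stood 7 of 8 lid genes, 6 of 14 core particle genes and 3 of 10 base genes, beside 39.1% of all genes. The median best rank in the pooled list was 3735.5 for the lid and 15975 for the core particle. No median rank could be given for the base, where 5 of 10 genes were listed. The median gene of the genome had no summit in the pooled list. These relaxed lists are long and were not filtered for agreement between replicates. The pooled one is labelled as peaks and background for input to IDR, so a weak entry may be background. Its deposited −log10 q-value was 4.08 at the bound members and 0.769 at Prosalpha6, the lowest of the listed members.

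The unbound primary genes of best pooled rank were Prosalpha2 in the core particle, Rpt2 in the base and Rpn8 in the lid. Prosalpha2, an alpha ring gene, had pooled rank 7871 at -210 bp and ranks of 11054 and 5761 in replicates 1 and 3, with no summit in replicate 2. Rpt2, whose product is known in yeast to help open the gate of the core particle, had pooled rank 10796 and ranks of 15115 and 5971 in replicates 1 and 3, again with none in replicate 2. At the upstream promoter of Rpn8, where its pooled summit lay, the best summits within 500 bp ranked 8232, 11743 and 7669 in replicates 1, 2 and 3, at -326, -426 and -289 bp. Replicates 1 and 2 also held summits before its downstream TSS, at ranks 3546 and 8428, and these are the higher ones in the plot of ranks. Within 500 bp, none of these 3 genes was in more than 1 top list. The IDR summit of Rpn8 at -511 bp was nevertheless matched just outside that limit in 2 top lists. These summits were at -525 bp (rank 3719) in replicate 1 and at -501 bp (rank 4893) in replicate 3. The other unbound primary genes with a pooled summit within 500 bp were Prosalpha3, Prosalpha5, Prosalpha6, Prosalpha7, Prosbeta1, Prosbeta4, Prosbeta5, Prosbeta7, Rpn7 and the ubiquitin receptor gene Rpn10. Within 500 bp their pooled ranks ran from 8094 at Prosbeta5, the gene of the chymotrypsin-like subunit, to 20276 at Prosalpha6. That of Prosbeta1, the gene of the caspase-like subunit, was 13556. Outside the limit, Prosalpha6 had a higher pooled summit at -586 bp (rank 7024), which was not in the IDR set. Replicates 1 and 3 held summits there at -550 bp (rank 8660) and -587 bp (rank 5118), the latter in the top list.

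No pooled summit lay within 500 bp of 10 primary genes. They were the ATPase genes Rpt1, Rpt3, Rpt4 and Rpt6, the base scaffold gene Rpn1, the lid gene Rpn6, the alpha gene Prosalpha1 and the beta genes Prosbeta2, Prosbeta3 and Prosbeta6. Of these, Rpn1, Prosalpha1 and Prosbeta6 had none in any replicate list either. Their nearest IDR summits were 8100 bp, 3278 bp and 1081 bp away from the TSS, and that of Prosbeta6 (rank 4133) lay past the 3' end of the gene.

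Duplicate copies stood far from IDR peaks. Their median distance from a TSS to the nearest IDR summit was 21293.5 bp (range 2212 to 146335), against 2934.5 bp for primary genes and 5544 bp for all protein-coding genes. Prosbeta2R2, a copy of the gene for the beta2 catalytic subunit, was the only duplicate with a pooled summit within 500 bp, at -90 bp and rank 19250, with ranks of 23668 and 13533 in replicates 1 and 3 and no summit in replicate 2. The count of 0 of 16 comes from a small list whose genes are not independent draws, and it was not tested against all genes. A single exon was annotated in 6 of 16 duplicates, 4 of 32 primary genes and 15.2% of all protein-coding genes, and this was not tested.

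**Figure D3:**
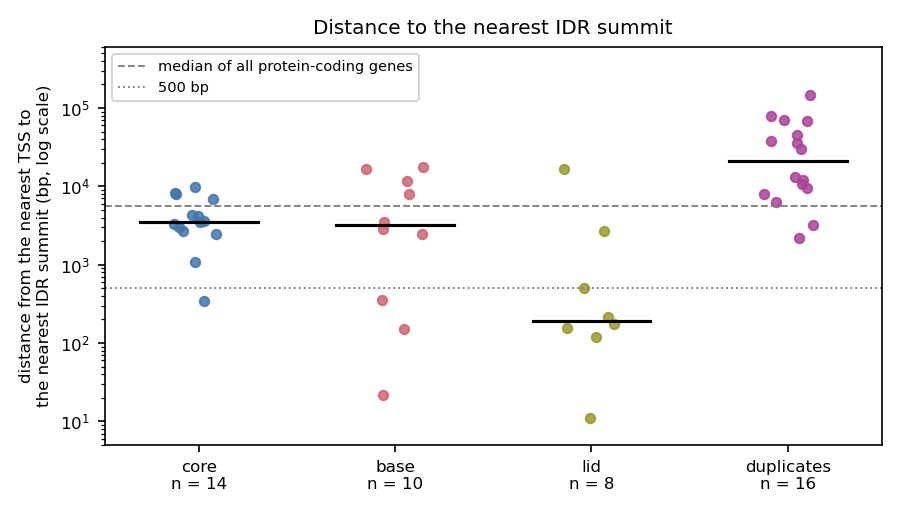
Distance from a TSS to the nearest IDR summit (logarithmic axis, bp) for each primary gene and each duplicate, with group medians and the median of all protein-coding genes. Duplicates lie between 2212 and 146335 bp from a summit, and the 9 bound primary genes lie within 500 bp.

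Most bound members lay beside the start of an opposite-strand gene. A TSS of another protein-coding gene on the opposite strand lay within 500 bp of 21 of 32 primary genes and of 3 of 16 duplicates, beside 3878 of 13945 genes in all. Of the 21 primary genes, 7 were bound, against 40.4% of all genes with such a neighbour. Of the 11 without, 2 were bound, Rpn11 and Rpn12, against 16.6% of all genes without one. In each of the 7 cases the neighbour was called bound by the same summit, and at the other 14 neither gene was bound. Start sites this close tend to be called together, and the share of such pairs over all genes was not counted. The summit was thus within 500 bp of another gene's TSS at 7 of 9 bound members (77.8%), against 49.4% of all bound genes. With each summit given to the nearest protein-coding TSS alone, 3 members were bound, Rpn11, Rpn12 and Rpn3, against 18.2% of all genes. The member's own TSS was the nearest at 33.3% of bound members and at 77.8% of all bound genes. A peak shared by 2 start sites does not say which gene it belongs to.

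**Figure D4:**
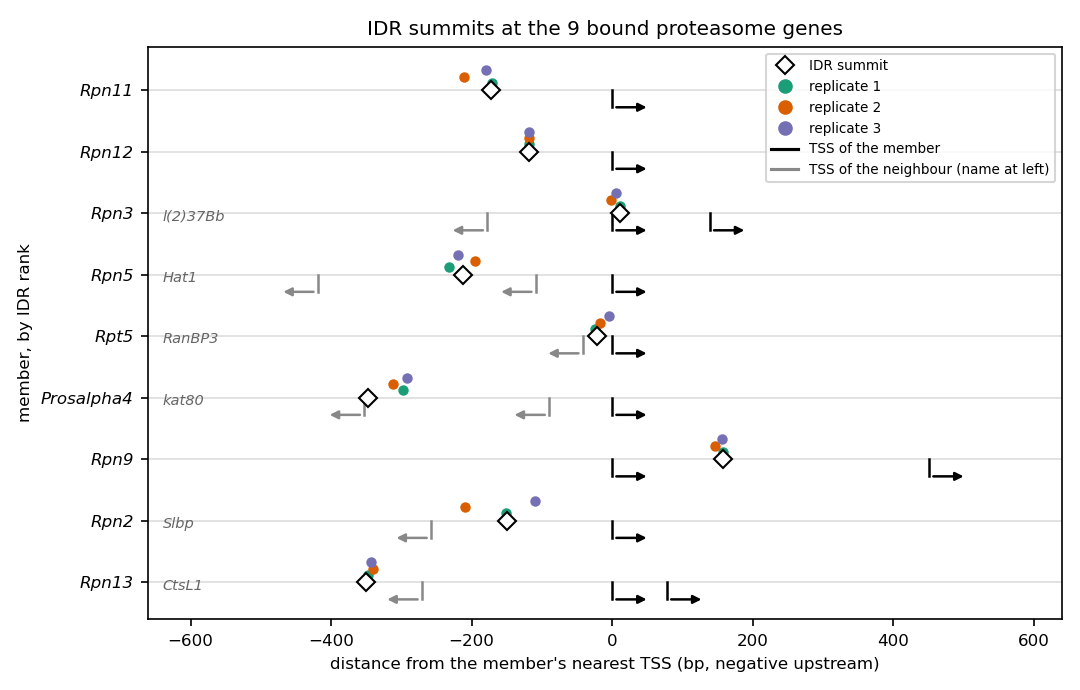
Position of the IDR summit and of the replicate summits relative to the TSS of each bound member (x axis, bp, negative upstream), with the start sites and direction of the neighbours of 6 members. The summits of Rpn12 coincide at -118 bp, and at Prosalpha4 a start site of kat80 lies closer to the IDR summit than that of the member does.

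Summits of bound members lay at a median of -149 bp, against -108 bp at all bound genes, and 7 of 9 were upstream of the TSS, the same share as over all bound genes (77.8%). In each replicate the summit nearest the IDR summit, at most 200 bp from it and of any rank, was taken. The SD of these positions was 0 to 50.3 bp at each member, the widest being Rpn2. That choice limits the spread.

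The promoter window from 250 bp before to 50 bp after the most upstream TSS was searched for 12 motifs on both strands. TATCGATA occurred in 12 of 32 primary windows (37.5%) and in 0 of 16 duplicate windows, against 9.36% of all protein-coding windows. The 12 were Prosalpha3, Prosalpha5, Prosalpha6, Prosbeta1, Prosbeta2, Prosbeta6, Rpn3, Rpn7, Rpn9, Rpn12, Rpn13 and Rpt5. They were 5 of 9 bound members and 7 of 23 unbound primary members, beside 13.9% of windows of all bound genes. The match in the Rpn3 window, at -197 bp, is another than the one printed above, which lies past the window. The shorter core ATCGAT, which every TATCGATA contains, occurred in 17 of 32 primary and 1 of 16 duplicate windows, against 23.3% of all windows.

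The other motifs lay on both sides of the share of all windows. GAGAG, the letters of GAGA factor, occurred in 3 of 32 primary windows and 6 of 16 duplicate windows, against 29.7% of all. CAGCTG, an E-box of neural basic helix-loop-helix proteins, occurred in 1 primary window, that of Rpt3, against 17.7% of all. CACGTG, the E-box of Myc, was in no primary window (4.20% of all). GGTCACAC, the core of the M1BP site, occurred in 5 of 32 (15.6%, against 7.70% of all), and TGACNNNGC, the antioxidant response element of Cnc, also in 5 of 32 (15.6%, against 8.63% of all); in Prosbeta3 and Rpn1 these 2 matches overlapped. Ohler motif 7, as CATCNCTA, was in 4 of 32 windows (12.5%, against 6.42% of all) and as CAGCNCTA in 2 (6.25%, against 3.56%). TATAAA was in 13 of 32 (45.8% of all), TCAGT in 18 (51.5%) and the forkhead letters TGTTTAC in 4 (9.19%). A match describes the letters, not a bound site, and duplicates and primary genes were not tested against each other.

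**Figure D5:**
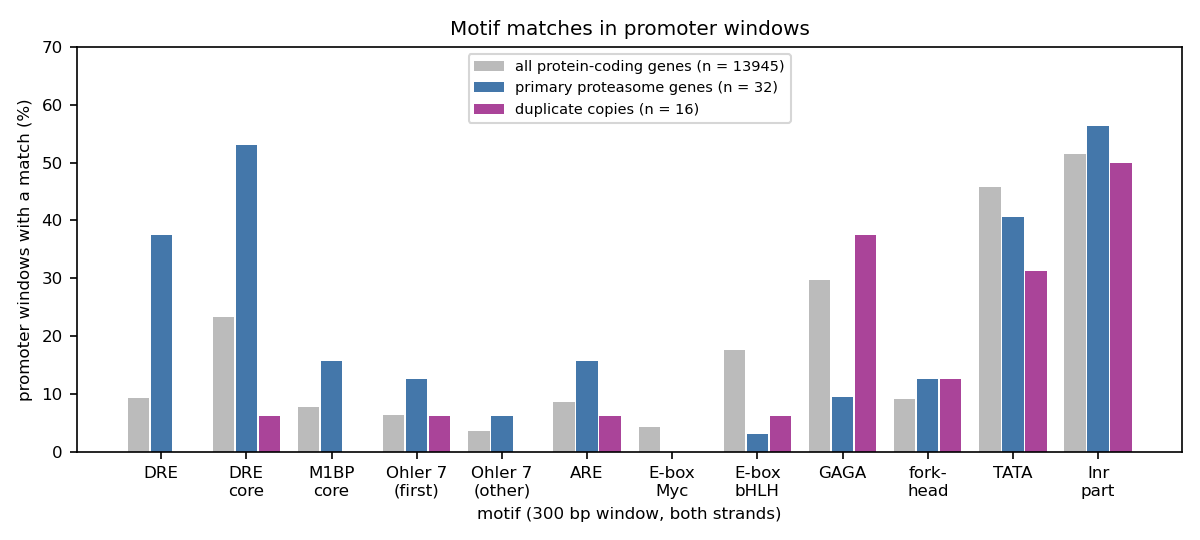
Share of promoter windows of 300 bp (y axis, percent) with a match to each of 12 motifs on either strand, for all protein-coding genes, primary proteasome genes and duplicate copies. DRE stands at 37.5% of primary windows, 0 of duplicates and 9.36% of all genes, whereas GAGA stands at 9.38%, 37.5% and 29.7%.

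Near the summits themselves, TATCGATA lay within 100 bp of 3 of the 9 member summits, those of Rpn12, Rpn3 and Rpt5, against 5.99% of 2837 promoter summits. Relative to the summit, its first base was at -98 bp in Rpn12, +65 bp in Rpn3 and -24 bp in Rpt5, on the strand of the gene. In windows of 301 bp Rpn9 and Rpn13 joined, which gave 5 of 9 against 8.67%. There it began at -131 bp in Rpn9 and +134 bp in Rpn13. Its place relative to the summit thus varied between members. At Rpn11, the member of highest rank, none of the printed bases held ATCGAT. All 12 motifs were searched within 100 bp of the summits. ATCGAT was at 3 member summits (13.6% of promoter summits), TATAAA at 3 (34.5%) and TCAGT at 4 (33.5%). GAGAG (25.9%), CAGCTG (12.9%) and GGTCACAC (3.45%) were at 1 each, that of Rpn9. CATCNCTA, CAGCNCTA, CACGTG, TGACNNNGC and TGTTTAC were at none.

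Genes that act with the proteasome were read from a separate list of 35 symbols, of which 32 were in the annotation. Of these, 16 were bound, against 23.3% of all genes. With each summit given to its nearest TSS 12 were bound, against 18.2% of all genes. This list too was drawn up with earlier results of these data known, and no test was made on it. The 8 of highest rank were led by Hsp83, the Hsp90 chaperone gene, at rank 37. Pomp, whose product assembles the core particle, followed at rank 1127 (-295 bp), with ranks of 964, 1198 and 1382 in the replicates. Next came RpS27A, a ubiquitin fusion gene, at rank 1192, shared with Ip259, and cnc, which encodes the factor named above, at rank 1259 and 318 bp downstream of a TSS. The replicates ranked the cnc peak 1259, 1984 and 977. CG8209 (rank 1264, shared with HP4), TppII (rank 1888, a giant peptidase gene, shared with ND-MWFE), ntc (rank 1891, shared with CG32264 and IntS10) and eff (rank 2095, a ubiquitin-conjugating enzyme gene) completed the 8. The lid subunit gene Sem1, which the symbol rule does not take, had no pooled summit within 500 bp. Of the bound genes, Hsp83, Hsc70-4 (rank 2385), RpL40 and RpS27A also belong to lists of chaperones or ribosomal proteins.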

How the data were processed

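ChIP-seq peak lists of 3 biological replicates were used as deposited. Per the labels, coordinates are on build dm6. The authors deposited a relaxed list of 30000 entries for each replicate and for the pooled replicates, and an IDR set of 5724 peaks. The label of the pooled relaxed list names both peaks and background. Each holds a deposited signal value, used only to rank peaks within a list, and the deposited offset of the summit from the peak start. Each also holds a deposited −log10 q-value, which was not used for any count. Aligner, peak caller, IDR threshold and read depth: not given in the sources used here.

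Start sites of genes came from Ensembl release 115 (assembly BDGP6.54), without transposable elements. Sequences came from the RefSeq release 6 genome, and 99.99% of 17682 shared symbols had the same coordinates in both annotations. Sequences from 1 arm were not printed, and 1 gene that shares a summit with a member is not reported here by name. A replicate supported an IDR peak when summits were at most 200 bp apart. Scripts ran in Python 3.11.15 with numpy 2.4.6, pandas 2.3.3 and matplotlib 3.10.9. On simulated data, 200 of 200 placed summits and 0 of 200 decoys were assigned to genes. Columns of other samples left out numbered 0.

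Members, lists, motifs and the naming rule were chosen with earlier results of these data known. The rule took all bound members and the genes sharing their summits, primary members absent from the pooled list, duplicates present in it, the unbound primary member of best pooled rank per subcomplex, and up to 8 bound genes of the list of regulators. Rpn8 as a near miss, Prosalpha3, the genes named for motifs and Sem1 were named after their values were seen. With 1 group there is no contrast between samples, so counts were set beside all protein-coding genes and no test was made. Alternatives changed the TSS distance, the peak set, the replicates, the assignment to the nearest TSS and the motif window.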

Additional observations from a re-analysis of the deposited data

How the results depend on the processing

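The count of 9 bound members was 4 in the 2862 IDR peaks of highest signal, 5 in IDR peaks supported by all 3 top lists, 23 in the pooled relaxed list and 3 with each summit given to its nearest TSS, and 6 without any one replicate. The share of all genes (23.3%) moved too: it was 13.5% in the 2862 peaks, 15.98% where all top lists agreed, 49.3% in the pooled list, 18.2% with the nearest TSS and 17.6% to 18.2% when a replicate was left out. Core particle genes (main count 1) numbered 0 within 200 bp, 0 in the 2862 peaks, 0 with the nearest TSS, 2 in the top lists of replicates 1 and 2 and 10 in the pooled list. Base genes (3) numbered 0 in the 2862 peaks and with the nearest TSS, 1 where all top lists agreed, 5 in the pooled list and 1 to 2 when a replicate was left out. Lid genes (5) numbered 3 where all top lists agreed and with the nearest TSS, and 3 to 4 when a replicate was left out. Duplicates (0) numbered 1 in the pooled list. The median offset of -149 bp was -96.5 bp in the top list of replicate 2, and the median best rank of primary genes, 13480.5, was 18188.5 within 200 bp. In 301 bp windows ATCGAT was at 6 member summits (20.1% of promoter summits) and TATCGATA at 5 (8.67%). Within 100 bp of the summits, ATCGAT and TATCGATA were at 3 each (13.6% and 5.99% of promoter summits). The nearest-TSS, distance and window settings change which genes or bases can count. The stricter peak sets and the left-out replicates keep only part of the IDR set of all 3 replicates, so their counts could only fall. The pooled list also holds the members' IDR peaks, so its member counts could only rise. For the replicates' own top lists the cause was not tested. No paired analysis was possible because there was 1 group. Unknown depth limits any reading of an absent peak.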
